A study of Bos taurus with 24 samples.

Results

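Unexposed monocyte-derived macrophages (MDMs) of high and low responder cows were compared after 18 h, the later of both time points. These are 6 of the 24 mRNA libraries of the study, namely the control wells of 18 h from 3 high and 3 low responders, and they were taken by their labels alone. All MDMs came from lactating female Holstein cows. Adherent blood mononuclear cells were grown for 6 days in AIM V medium with 5 ng/ml recombinant bovine GM-CSF, and the control wells received no bacteria. High and low responders are cows that the study had classed by the nitric oxide output of their MDMs after contact with E. coli, so the groups differ by cow, and each cow gave 1 control library at 18 h. The control wells of 3 h (6 libraries) and the wells that were given E. coli, inactivated with PFA and added at an MOI of 5, for 18 h (6 libraries) are given beside them only where they bear on the control difference. Libraries are named by the number of the library code, which was 91, 93 and 94 in the high responders and 91, 92 and 94 in the low responders, and values are given in this order.

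Macrophages keep a low level of interferon signalling even when no microbe is present. Type I interferon activates a complex of STAT2 and IRF9 with a further STAT protein, and this complex drives interferon-stimulated genes, which encode antiviral effectors such as the IFIT, IFITM and OAS families, RSAD2 and ISG15. Interferon gamma and IRF1 drive an overlapping set, which includes the guanylate-binding proteins, the immunoproteasome and the peptide loading machinery. Contact with bacterial lipopolysaccharide through TLR4 and CD14 brings on NOS2, the inducible nitric oxide synthase, which makes nitric oxide from arginine.

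The question of the comparison is how far both responder groups differed before any contact with bacteria. A library of the high responders held from 12678189 to 13708583 expected counts and a library of the low responders from 8987288 to 20936554, so that the depth of the groups overlapped. The 10 most abundant genes took 10.2% to 11.2% of the counts in the high responders and 11.3% to 11.5% in the low responders. Levels are given as CPM, which are counts per 1e+06 of the normalized library size, and log2 fold changes are high minus low responders, so that a negative value means a lower level in the high responders. A gene was called when its adjusted p (Benjamini-Hochberg, edgeR's quasi-likelihood test, over the 11356 genes tested) was below 0.05 and its fold change was above 1.5. In these terms 17 genes were called, 4 higher and 13 lower in the high responders, which is 0.15% of the genes tested (0.0352% higher and 0.114% lower). At an unadjusted p below 0.05 there were 2460 genes, 1258 higher (11.1%) and 1202 lower (10.6%). The calls lie at the edge of the threshold: the largest adjusted p among the 17 genes was 0.0466, and 709 further genes had an adjusted p between 0.05 and 0.1. DESeq2, with the same thresholds, called 692 genes, 304 higher (2.68%) and 388 lower (3.42%), with all 17 genes among them. Leaving out any 1 of the 3 low responder libraries gave a count of 0 (at an unadjusted p below 0.05, 2412, 1547 and 2073 genes without the libraries 91, 92 and 94), without the high responder library 93 it was 129, and without the high responder libraries 91 and 94 it was 19 and 10. The values in each library are therefore given beside each gene.

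Gene symbols were known for 2222 of the tested genes, and this bears on every gene group below. The files list Ensembl identifiers only, and symbols were read from partial copies of the study's supplementary gene tables. For 1248 genes the symbol was known because of a low identifier, which has nothing to do with expression. The other 974 were known because they stood near the top of a table that the study ordered by its own test of the response at 18 h, which used these same control libraries. The share of genes lower in the high responders at an unadjusted p below 0.05 was 10.6% among all tested genes, 11.1% among the 1248 and 26.1% among the 974. Named genes are therefore a selected sample, and counts over a gene list are no independent evidence of its direction.

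Of the called genes, the one with the largest difference was ENSBTAG00000037605, for which no symbol was known. It held 41.7, 40.8 and 86.9 CPM in the high responders and 0.476, 0.288 and 0.507 CPM in the low responders. The difference was 7.11 (SE 0.46) on the log2 scale with an adjusted p of 0.00826. The high responder libraries held 608, 585 and 1332 counts of it, and the low responder libraries held 5, 7 and 7 counts. The difference was also present in the wells of the other groups, with log2 fold changes of 7.87 (SE 0.68) in control wells of 3 h and 6.80 (SE 0.45) in exposed wells of 18 h (adjusted p = 0.0336 and 0.00709, edgeR). Another gene without a symbol, ENSBTAG00000015818, held 164, 183 and 163 CPM in the high responders and 47.3, 72.2 and 69.5 CPM in the low responders (log2 fold change 1.42, SE 0.16, adjusted p = 0.0457, edgeR). Its expected counts were not whole in any of the 6 libraries, so part of its reads was shared with other genes and its level is uncertain.

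SYNGR1, which encodes a membrane protein of secretory vesicles, was the only gene with a symbol that was called higher in the high responders. It held 26.9, 26.4 and 29.8 CPM in the high responders and 14.8, 12.5 and 15.3 CPM in the low responders, means of 27.7 ± 1.81 and 14.2 ± 1.51 CPM (SD, n = 3 each). Its log2 fold change was 0.96 (SE 0.12) with an adjusted p of 0.0466, and the groups did not overlap. The 3 other genes described in this direction did not pass. The replicative polymerase gene POLE held 55.99, 51.9 and 48.95 CPM in the high responders and 34.1, 30.9 and 34.6 CPM in the low responders (log2 fold change 0.64, SE 0.10, adjusted p = 0.0593). COL14A1, a fibril-associated collagen, held 9.18, 8.03 and 15.3 CPM in the high responders and 3.61, 3.01 and 3.33 CPM in the low responders (log2 fold change 1.70, SE 0.28, adjusted p = 0.0617). The ubiquitin ligase gene TRIM37 held 30.98, 30.4 and 33.5 CPM in the high responders and 20.6, 19.6 and 18.6 CPM in the low responders (log2 fold change 0.68, SE 0.10, adjusted p = 0.056). In each of these 3 genes all high responder libraries lay above all low responder libraries. This was a condition for naming them, so it is no further result. Of all tested genes, 15.2% met it in this direction.

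**Figure D1:**
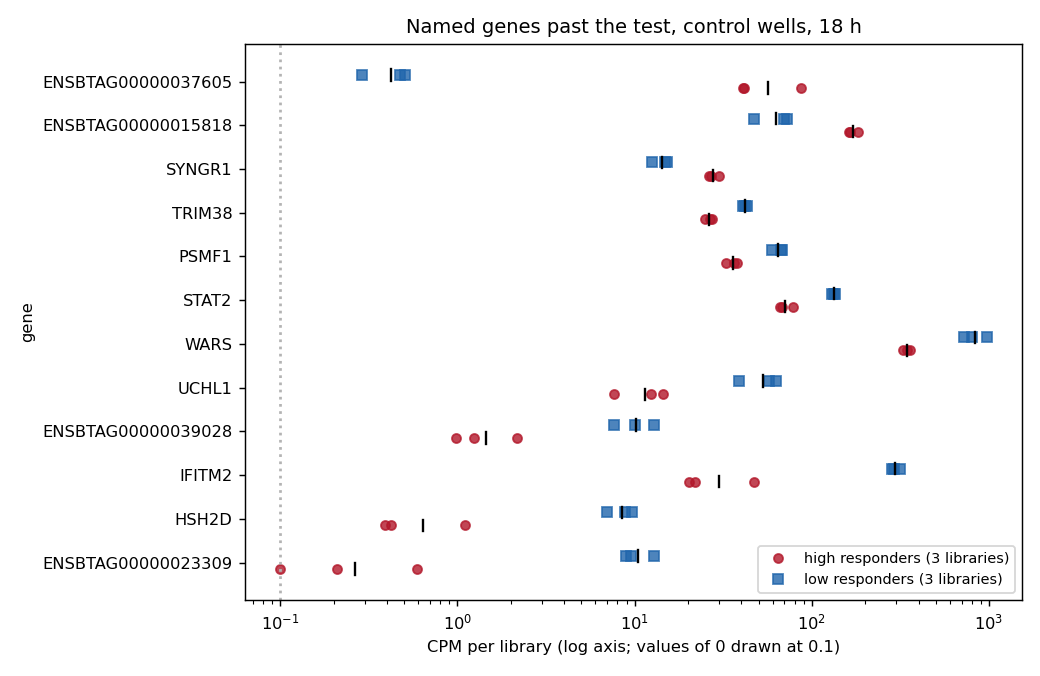
CPM of the 8 called genes with a symbol and 4 called genes without one, in each control library of 18 h on a log axis. Circles are the 3 high and squares the 3 low responder libraries, vertical bars are group means, and a value of 0 is drawn at 0.1. The groups do not overlap in any of the 12 genes, and ENSBTAG00000037605 lies at 40.8 to 86.9 CPM in high responders and at 0.288 to 0.507 CPM in low responders.

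The 13 genes called lower in the high responders included 7 with a symbol, and 2 of these belong to the list of interferon-stimulated genes described below. IFITM2, an interferon-induced membrane protein that restricts virus entry, held 47.1, 21.99 and 20.2 CPM in the high responders and 292, 282 and 316 CPM in the low responders. Its log2 fold change was -3.33 (SE 0.33) with an adjusted p of 0.0457, and the groups lay far apart. Since the IFITM genes are near-identical copies and its expected counts were not whole in any of the 6 libraries, its reads may be split among family members. STAT2, a subunit of the transcription factor that type I interferon activates, held 78.5, 65.7 and 67.5 CPM in the high responders and 129.7, 134 and 136 CPM in the low responders (log2 fold change -0.93, SE 0.09, adjusted p = 0.0457). The spread within each group was small beside the gap between them.

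The adaptor gene HSH2D, which is expressed in blood cells, held 1.10, 0.419 and 0.392 CPM in high and 6.94, 9.68 and 8.83 CPM in low responders. Its log2 fold change of -3.74 (SE 0.40, adjusted p = 0.0457) rests on 16, 6 and 6 counts in the high responders, against 73, 235 and 122 in the low responders. The ubiquitin hydrolase gene UCHL1 held 7.68, 14.5 and 12.3 CPM in high and 63.2, 38.95 and 57.6 CPM in low responders (log2 fold change -2.22, SE 0.27, adjusted p = 0.0457). Both genes were thus low in every high responder library.

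WARS encodes the tryptophanyl-tRNA synthetase, which interferon gamma induces. It held 328, 358 and 345 CPM in high and 719, 975 and 803 CPM in low responders (log2 fold change -1.29, SE 0.13, adjusted p = 0.0457). PSMF1, a regulator of the proteasome, held 38.03, 36.5 and 32.9 CPM in high and 67.6, 59.5 and 66.7 CPM in low responders (log2 fold change -0.86, SE 0.10, adjusted p = 0.0457). TRIM38, a ubiquitin ligase that acts on innate immune signalling, held 27.4, 25.1 and 26.5 CPM in high and 42.1, 41.1 and 43.02 CPM in low responders (log2 fold change -0.69, SE 0.09, adjusted p = 0.0466). In TRIM38 the libraries of a group lay close together beside the gap between the groups.

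Among the called genes without a symbol, ENSBTAG00000023309 held 0, 0.209 and 0.587 CPM in high and 8.94, 12.8 and 9.49 CPM in low responders, that is 0, 3 and 9 counts against 94, 312 and 131. ENSBTAG00000039028 held 1.23, 0.977 and 2.15 CPM in high and 7.61, 12.8 and 10.1 CPM in low responders (log2 fold change -2.82, SE 0.34, adjusted p = 0.0457). These values rest on 18, 14 and 33 counts in the high responders, against 80, 312 and 139 in the low responders. Across the 12 called genes named here, no sign changed in the 20 alternative settings, and each gene lost its call in 4 to 10 of them. Settings that only relaxed a threshold reused the main fit, so they could neither change a sign nor lose a call.

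Among the lists with at least 8 tested members, the interferon-stimulated genes had the median farthest from 0. Of the 61 genes of this list, 36 had a symbol and all 36 were tested. All 36 had a negative log2 fold change, with a median of -1.42 beside a median of 0.01 over all genes tested. In 35 of them, each high responder library lay below each low responder library, and TRIM25 was the exception. Of all genes tested, 13.3% did not overlap in this direction, and of the genes with a symbol 19.4%, while 17.7% of the genes with a symbol were lower at an unadjusted p below 0.05. At an unadjusted p below 0.05, 34 of the 36 were lower, against 10.6% of all genes tested, and the 2 others were TRIM25 and LGALS9. Only IFITM2 and STAT2 were called by edgeR, whereas DESeq2 called 28 of the 36 lower. DESeq2 called 3.42% of all genes tested lower, and 12.9% of the genes whose symbol came through the study's test. All 36 were negative in each of the 20 alternative settings, and their median ranged from -1.55 to -1.10. Settings that only relaxed a threshold could not change these values. The choice of symbols bears strongly here: LGALS3BP was the only member whose symbol was known independently of the study's test. This gene, a secreted glycoprotein, held 514, 481 and 412 CPM in high and 753, 612 and 714 CPM in low responders (log2 fold change -0.58, SE 0.13, adjusted p = 0.0733), so that the groups did not overlap.

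The summed level of the 36 genes was 3562, 2233 and 3252 CPM in the high responder libraries 91, 93 and 94. It was 6771, 5985 and 6451 CPM in the low responder libraries 91, 92 and 94. The means were 3016 ± 695 and 6402 ± 396 CPM (SD, n = 3 each). High responder library 93 held the lowest sum, and without it the median over the list was -1.10. In bulk RNA, a difference of this kind may come from fewer cells that express the genes or from less RNA per cell, and these cannot be told apart.

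Members of the list that did not pass the test are described by their values, and except for IFIT1 and GBP5 they were chosen after the values had been seen, as were most members of the further lists. The antiviral effector gene IFIT1 held 81.6, 14.6 and 71.7 CPM in high and 339, 389 and 289 CPM in low responders (log2 fold change -2.61, SE 0.55, adjusted p = 0.0702). RSAD2, which encodes viperin, held 44.4, 9.50 and 29.8 CPM in high and 217, 169.9 and 193 CPM in low responders (log2 fold change -2.81, SE 0.47, adjusted p = 0.0659). The ubiquitin-like modifier ISG15 held 88.7, 21.2 and 95.7 CPM in high and 332, 291 and 311 CPM in low responders (log2 fold change -2.20, SE 0.49, adjusted p = 0.0747). In these 3 genes library 93 was the lowest of the high responders, and all low responders lay above all high responders.

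The list also holds sensors of viral RNA and regulators of the pathway. IFIH1, which encodes the RNA sensor MDA5, held 68.8, 32.5 and 60.9 CPM in high and 156, 151 and 163 CPM in low responders (log2 fold change -1.55, SE 0.25, adjusted p = 0.0612), and the related DHX58 had -1.01 (SE 0.32, adjusted p = 0.134). USP18, which removes ISG15 from proteins and damps the interferon receptor, had -1.67 (SE 0.34, adjusted p = 0.0692). IRF9, the DNA-binding subunit that partners STAT2, held 56.1, 38.8 and 53.2 CPM in high and 84.2, 62.8 and 70.8 CPM in low responders (log2 fold change -0.57, SE 0.17, adjusted p = 0.119). The macrophage lectin gene SIGLEC1 held 4.59, 2.65 and 8.68 CPM in high and 25.5, 15.1 and 29.3 CPM in low responders (log2 fold change -2.13, SE 0.43, adjusted p = 0.0666).

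GBP5, a guanylate-binding protein of the interferon gamma response, held 3.91, 2.16 and 9.99 CPM in high and 34.5, 10.2 and 27.2 CPM in low responders (log2 fold change -2.15, SE 0.61, adjusted p = 0.114). IRF1, the transcription factor of the same response, held 89.9, 76.1 and 87.8 CPM in high and 119, 108 and 155 CPM in low responders (log2 fold change -0.60, SE 0.15, adjusted p = 0.0848). IRF8, a factor of the macrophage lineage, held 38.3, 34.7 and 39.7 CPM in high and 42.7, 33.8 and 38.96 CPM in low responders (log2 fold change -0.05, 95% interval -0.31 to 0.22). The groups did not overlap in GBP5 and IRF1, and they overlapped in IRF8.

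**Figure D2:**
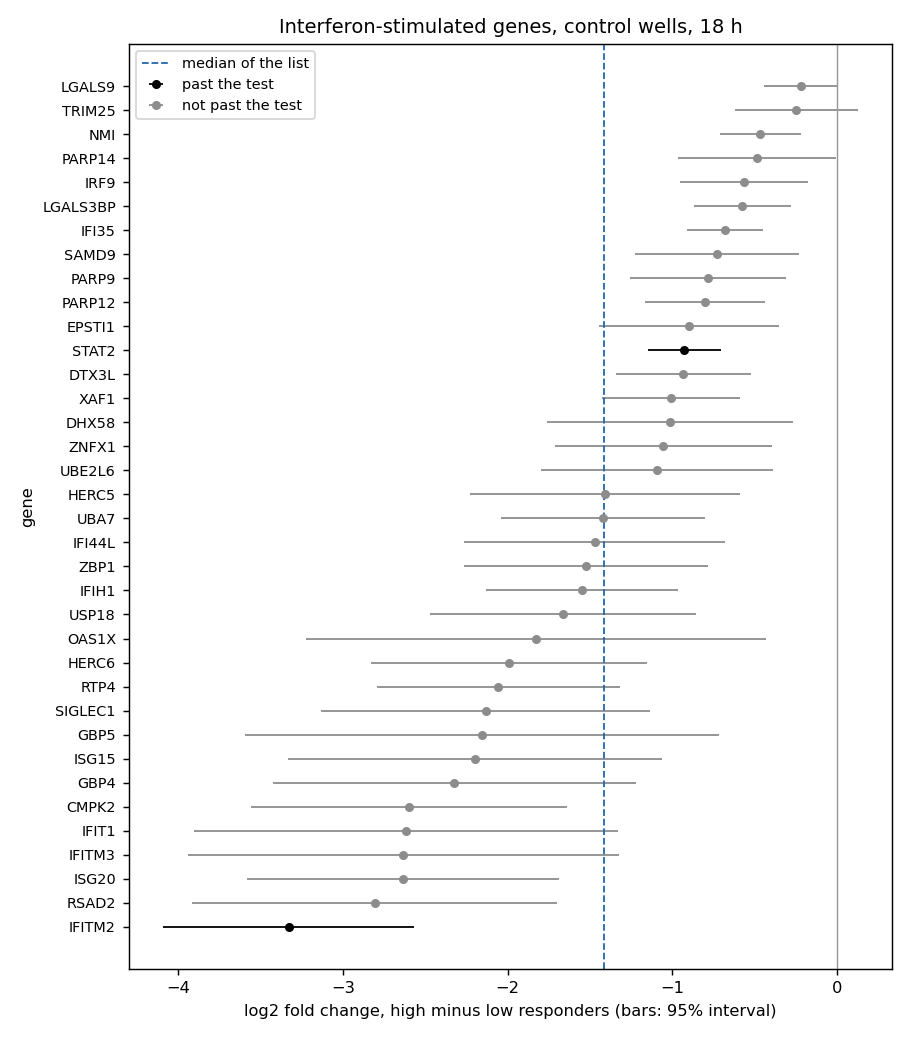
Log2 fold change (high minus low responders) of the 36 interferon-stimulated genes in control wells of 18 h, sorted by size, with 95% intervals from the edgeR fit. Black points passed the test (IFITM2 and STAT2), grey points did not, and the dashed line is the median of the list at -1.42. All points lie below 0, and the intervals of TRIM25 and LGALS9 reach above 0.

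**Figure D3:**
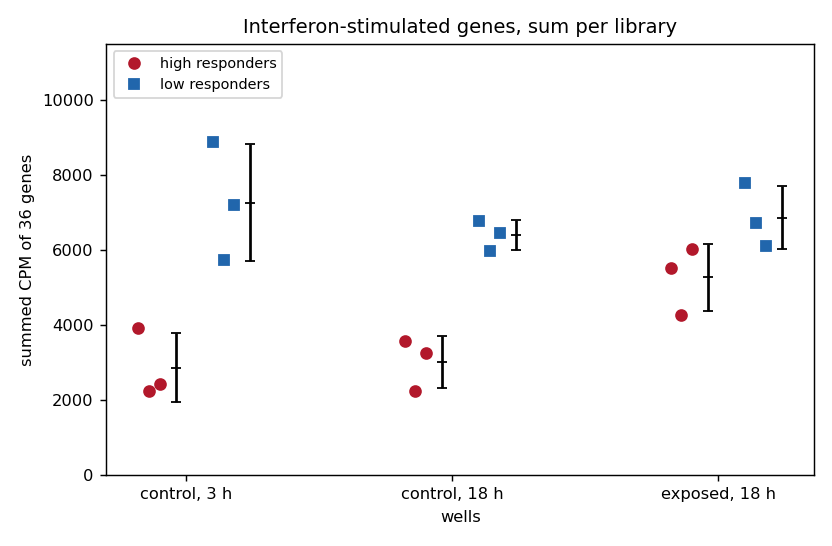
Summed CPM of the 36 interferon-stimulated genes in each library of the control wells of 3 h and 18 h and of the exposed wells of 18 h. Circles are high and squares low responder libraries, and black bars are the mean ± SD of 3 libraries. In control wells of 18 h the high responders lie at 2233 to 3562 CPM and the low responders at 5985 to 6771 CPM.

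Antigen processing through MHC class I includes many interferon-induced genes. Of 15 tested genes of this list, 8 were lower and 1 higher at an unadjusted p below 0.05, none was called by edgeR, DESeq2 called 3 lower, and the median was -0.39. The 8 lower genes did not overlap between groups. Of all genes tested, 10.6% were lower at this p, 13.3% did not overlap in this direction and DESeq2 called 3.42% lower. For 1 of the 15 the symbol was known independently of the study's test. Of the genes whose symbol came through that test, 26.1% were lower at this p and DESeq2 called 12.9% lower. The peptide transporter gene TAP1 held 122, 95.9 and 87.3 CPM in high and 162, 138 and 180.2 CPM in low responders (log2 fold change -0.67, SE 0.15, adjusted p = 0.0785). The immunoproteasome subunits PSMB9 and PSMB10 had log2 fold changes of -0.78 (SE 0.17) and -0.66 (SE 0.14), and the proteasome activator subunits PSME1 and PSME2 had -0.43 (SE 0.09) and -0.39 (SE 0.09). B2M, the light chain of the class I molecule, held 3628, 2871 and 2895 CPM in high and 3982, 3678 and 4173 CPM in low responders (log2 fold change -0.35, SE 0.12, adjusted p = 0.167). The exception was the class I gene JSP.1 (297, 85.4 and 145 CPM in high and 92.2, 70.9 and 40.1 CPM in low responders), where the groups overlapped and the counts were not whole in any of the 6 libraries. Among 4 tested class II genes, BOLA-DMB and BOLA-DRA had negative values that did not overlap (log2 fold change -0.90, SE 0.22, and -0.85, SE 0.28), and BLA-DQB had a positive one (0.51, SE 0.18).

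The integrated stress response is switched on by amino acid shortage or by unfolded protein in the endoplasmic reticulum, and ATF4 and DDIT3 carry it. Of 22 tested genes of this list, 11 were lower and 0 higher at an unadjusted p below 0.05, 13 did not overlap in this direction, and the median was -0.51. Among all genes tested the shares were 10.6% and 13.3%. edgeR called 0 of the list, and DESeq2 called 8 lower, against 3.42% of all genes. Only 5 of the 22 symbols were independent of the study's test. Of the genes with a symbol from that test, 26.1% were lower at this p and DESeq2 called 12.9% lower. SESN2, a sensor of leucine, held 18.3, 18.1 and 14.8 CPM in high and 32.2, 38.1 and 30.1 CPM in low responders (log2 fold change -0.99, SE 0.14, adjusted p = 0.056). The asparagine synthetase gene ASNS held 50.3, 47.9 and 35.4 CPM in high and 76.4, 108 and 77.7 CPM in low responders (log2 fold change -0.99, SE 0.19, adjusted p = 0.0662). ATF4 itself held 520.3, 588 and 461 CPM in high and 686, 826 and 678 CPM in low responders, and DDIT3 held 72.6, 83.9 and 64.6 CPM in high and 118, 177 and 113 CPM in low responders (log2 fold change -0.49, SE 0.13, and -0.90, SE 0.19). In all 4 genes the low responder library 92 held the highest level.

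The phagocyte oxidase makes superoxide, and antioxidant genes limit its damage. Of 12 tested genes of both kinds, 6 were lower and 0 higher at an unadjusted p below 0.05, with a median of -0.42, and edgeR called 0 (DESeq2 called 3 lower). The share lower was 10.6% among all genes tested and 26.1% among the genes with a symbol from the study's test, to which 11 of these 12 belong. DESeq2 called 3.42% of all genes tested lower, and 12.9% of the genes with a symbol from that test. CYBB, the catalytic subunit of the oxidase, held 1243, 1319 and 776 CPM in high and 1493, 1697 and 2148 CPM in low responders (log2 fold change -0.69, SE 0.22, adjusted p = 0.142). The redox protein gene TXN held 172, 202 and 159 CPM in high and 217, 368 and 328 CPM in low responders (log2 fold change -0.79, SE 0.20, adjusted p = 0.0931).

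Other lists had positive medians, again with no gene called by edgeR. Of 30 tested cell cycle genes, 10 were higher and 0 lower at an unadjusted p below 0.05, against 11.1% higher among all genes tested, with a median of 0.31. Their summed level overlapped between groups, at 1587 to 2367 CPM in the high and 1346 to 1857 CPM in the low responders. UHRF1, which maintains DNA methylation, held 76.6, 78.96 and 61.9 CPM in high and 39.1, 35.00 and 53.3 CPM in low responders (log2 fold change 0.76, SE 0.17, adjusted p = 0.0782), and the factor E2F8 held 16.1, 18.01 and 11.6 CPM in high and 9.42, 6.92 and 8.47 CPM in low responders (log2 fold change 0.88, SE 0.21). Of 16 genes of cholesterol and lipid handling, 7 were higher and 0 lower, but 6 of the 16 had negative values and the median was 0.15. Their summed level lay the other way, at 3233 ± 1031 CPM in the high and 3975 ± 596 CPM in the low responders (SD, n = 3 each), and the groups overlapped. Among the higher genes, PLIN3, a coat protein of lipid droplets, held 65.7, 54.9 and 63.2 CPM in high and 38.6, 40.4 and 46.4 CPM in low responders (log2 fold change 0.54, SE 0.11, adjusted p = 0.0681). Of 14 lysosome genes, 6 were higher and 0 lower. LGMN, a lysosomal cysteine protease that is also a macrophage marker, held 2719, 2475 and 4312 CPM in high and 1251, 624 and 1212 CPM in low responders (log2 fold change 1.61, SE 0.31, adjusted p = 0.0662), and TPCN1, an endolysosomal ion channel, held 16.2, 18.4 and 25.4 CPM in high and 7.99, 6.71 and 10.1 CPM in low responders (log2 fold change 1.27, SE 0.22). Of 21 genes of glycolysis and hypoxia, 5 were higher and 3 lower, and the lactate transporter SLC16A3 had 0.84 (SE 0.23). In these 4 lists the symbols independent of the study's test numbered 4, 5, 5 and 4. Of the genes with a symbol from that test, 17.8% were higher and 26.1% lower at an unadjusted p below 0.05.

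**Figure D4:**
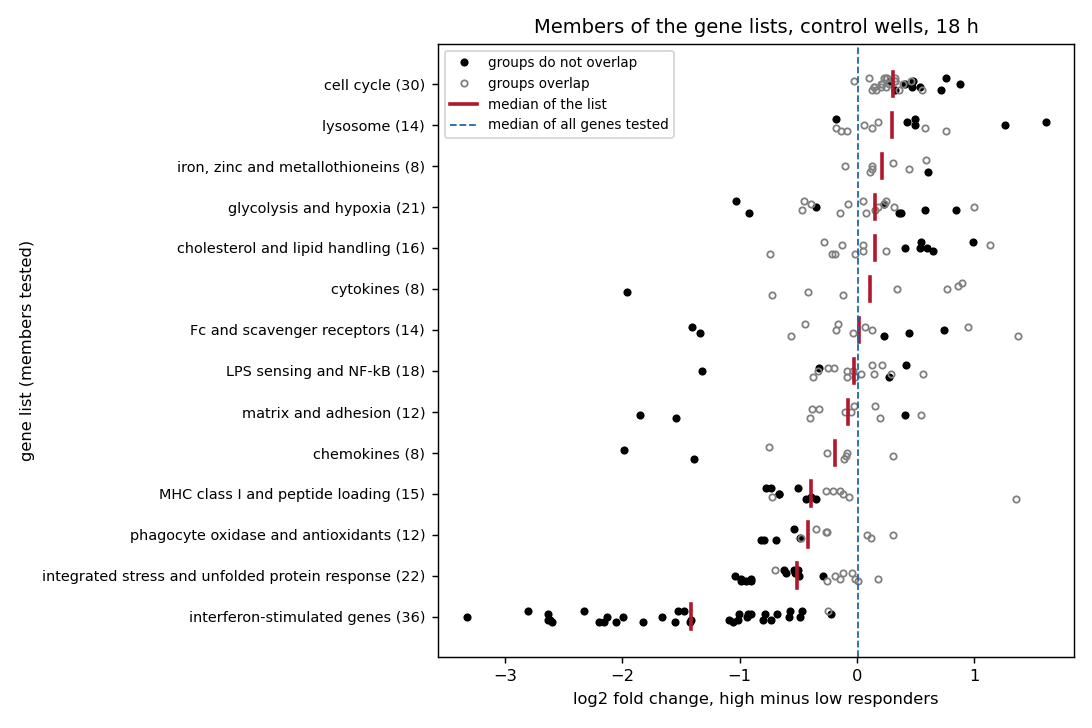
Log2 fold change (high minus low responders) of each tested member of the 14 gene lists with at least 8 tested members, cell type markers and the study's transcription factors aside, in control wells of 18 h. Filled points are genes whose 3 high and 3 low libraries do not overlap, open points are genes that overlap, thick bars are list medians, and the dashed line is the median of all genes tested (0.01). The interferon-stimulated genes lie lowest with a median of -1.42, and the cell cycle genes highest with a median of 0.31.

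The groups overlapped in NOS2 in control wells, although the cows had been classed by nitric oxide. NOS2 held 8.02, 6.35 and 5.55 CPM in high and 6.28, 3.79 and 8.18 CPM in low responders, with means of 6.64 ± 1.26 and 6.08 ± 2.20 CPM (SD, n = 3 each). The log2 fold change was 0.13 (SE 0.30) with a 95% interval of -0.58 to 0.83 and an adjusted p of 0.84. Its sign depended on single libraries, with a value of -0.03 without the high responder library 91 and of -0.14 without the low responder library 92. ASS1, which recycles citrulline to arginine, held 55.6, 71.9 and 77.1 CPM in high and 34.1, 18.1 and 28.1 CPM in low responders (log2 fold change 1.35, SE 0.24, adjusted p = 0.066), and the groups did not overlap. ARG2, a mitochondrial arginase, held 101, 112 and 96.3 CPM in high and 121, 134 and 143 CPM in low responders (log2 fold change -0.38, SE 0.10, adjusted p = 0.104). ACOD1, which makes itaconate, held 121, 81.97 and 91.7 CPM in high and 98.8, 83.2 and 151 CPM in low responders (log2 fold change -0.19, 95% interval -0.74 to 0.37). No symbol was matched for ARG1, which was not analysed here.

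The receptors of lipopolysaccharide overlapped between groups. TLR4 held 215, 181 and 252 CPM in high and 238, 219 and 223 CPM in low responders (log2 fold change -0.08, 95% interval -0.38 to 0.22). CD14 held 369, 434 and 545 CPM in high and 372, 177 and 353 CPM in low responders (log2 fold change 0.57, 95% interval -0.09 to 1.23). HIF1A, a factor of hypoxia and glycolysis, had 0.32 (95% interval -0.06 to 0.70), and the inflammasome sensor NAIP had -0.39 (95% interval -0.76 to -0.01, adjusted p = 0.218). THBS1, a secreted adhesion protein, held 109, 275 and 69.6 CPM in high and 122, 88.8 and 196 CPM in low responders (log2 fold change 0.15, 95% interval -1.04 to 1.34). Of 18 tested genes of lipopolysaccharide sensing and NF-kB, 2 were higher and 2 lower at an unadjusted p below 0.05, with a median of -0.02. Each is 11.1% of the list, near the shares of all genes tested (11.1% higher and 10.6% lower).

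The calgranulins are calcium-binding proteins of myeloid cells with antimicrobial action. S100A8 held 2.54, 9.63 and 9.46 CPM in high and 14.6, 14.8 and 43.4 CPM in low responders (log2 fold change -1.76, SE 0.59, adjusted p = 0.149), and S100A9 held 2.74, 6.35 and 4.63 CPM in high and 8.66, 6.09 and 26.00 CPM in low responders (log2 fold change -1.57, SE 0.57, adjusted p = 0.175). S100A12 held 60.4, 145 and 44.5 CPM in high and 162, 102 and 471 CPM in low responders (log2 fold change -1.56, SE 0.64, adjusted p = 0.217). In all 3 genes the low responder library 94 held the highest level, and without it the differences were -1.05, -0.70 and -0.68. C1R, a protease of the complement cascade, held 1.71, 2.16 and 2.15 CPM in high and 5.14, 5.39 and 9.34 CPM in low responders (log2 fold change -1.73, SE 0.30, adjusted p = 0.0659). Among chemokines, CCL5, which is itself induced by interferon, held 134, 70.4 and 29.6 CPM in high and 286, 327 and 306 CPM in low responders (log2 fold change -1.99, SE 0.47, adjusted p = 0.0796). Among receptors, CLEC4E, the receptor Mincle, held 5.83, 5.38 and 3.92 CPM in high and 11.03, 11.8 and 15.1 CPM in low responders (log2 fold change -1.34, SE 0.21, adjusted p = 0.0597), and FCGRT, the neonatal Fc receptor, held 662, 632 and 864 CPM in high and 479.6, 349 and 447 CPM in low responders (log2 fold change 0.75, SE 0.17, adjusted p = 0.0747).

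The marker genes of the labelled cell type were present in all 6 libraries. The 10 macrophage markers with a symbol summed to 16542 to 19330 CPM in the high responders and to 14997 to 17591 CPM in the low responders. The 3 T cell markers summed to 19.2 to 28.4 CPM in the high responders and to 46.7 to 56.7 CPM in the low responders, and most of this was LAT, an adaptor of T cell receptor signalling (26.1, 25.8 and 18.3 CPM in high and 45.3, 55.6 and 43.1 CPM in low responders). This list thus moved in the direction of the interferon-stimulated genes. In exposed wells of 18 h its sum was 587 ± 209 CPM in the high and 475 ± 129 CPM in the low responders (SD, n = 3 each). The sum thus also changed with exposure, and whether it stems from T cells was not tested. The 2 B cell markers moved the other way, with 5.66 to 19.1 CPM in the high responders and 2.75 to 4.98 CPM in the low responders. The 2 dendritic cell markers summed to 3.08 to 3.77 and 4.28 to 8.76 CPM, the 2 NK cell markers to 0.685 to 0.977 and 0.285 to 0.412 CPM, and the 3 neutrophil markers to 7.47 to 9.53 and 4.98 to 10.5 CPM. The stromal markers stayed at or below 0.741 CPM, and the 1 marker of red cells and platelets with a symbol was at 0 in all 6 libraries. The part of other cell types in the differences above was not tested.

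The same groups had been compared in the control wells of 3 h, a separate plate with wells of the same 6 cows. There edgeR called 1 gene, ENSBTAG00000037605, of 11034 tested (0.00906%), with 866 at an unadjusted p below 0.05 (3.15% higher and 4.69% lower), and DESeq2 called 240. The 17 genes called at 18 h all had the same sign at 3 h, 16 of them at an unadjusted p below 0.05, and 15 did not overlap between groups. Of all genes tested at 3 h, 5.97% did not overlap with the high responders higher and 6.76% with the high responders lower. IFITM2 had a log2 fold change of -3.11 (SE 0.49) at 3 h, HSH2D -3.37 (SE 0.47), WARS -1.15 (SE 0.19), UCHL1 -1.99 (SE 0.35) and STAT2 -1.02 (SE 0.21), none with an adjusted p below 0.114. The 36 interferon-stimulated genes had a median of -1.60 at 3 h, all 36 were negative, and 30 did not overlap with the high responders lower. Their sum was 2862 ± 924 CPM in the high and 7268 ± 1566 CPM in the low responders (SD, n = 3). Since the cows are the same, the 3 h wells are not further cows.

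The change of the difference from 3 h to 18 h was tested over all 12 control libraries. edgeR called 0 of 11581 genes (0%), with 78 at an unadjusted p below 0.05 (0.501% higher and 0.173% lower), and DESeq2 called 0 as well (107 at an unadjusted p below 0.05). The genes with a symbol and the smallest p were SH3PXD2B, FLT1, PFAS, PITHD1 and URB2. Their changes were 0.94 (SE 0.28), 0.82 (SE 0.27), 0.66 (SE 0.24), -0.42 (SE 0.15) and 0.55 (SE 0.21) on the log2 scale, and none passed. FLT1, a receptor of vascular growth factor, had a log2 fold change of -0.61 at 3 h and 0.21 at 18 h. NOS2 had -0.97 (SE 0.39) at 3 h and 0.13 (SE 0.30) at 18 h, a change of 1.09 (SE 0.49) that did not pass (adjusted p = 1.00). ACOD1 and IRF1 had changes of 1.02 (SE 0.41) and 0.52 (SE 0.21) that did not pass either. The median change of the interferon-stimulated genes was 0.22, with 0 of 36 at an unadjusted p below 0.05.

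In exposed wells of 18 h, whose libraries are others than the control libraries, the responder difference lay nearer to 0 in many of these genes. edgeR called 5 of 11210 genes there (0.0446%), and DESeq2 called 641. The 36 interferon-stimulated genes had a median of -0.52, with 15 lower and 1 higher at an unadjusted p below 0.05, and 16 did not overlap with the high responders lower, against 12.3% of all genes. Of all genes tested there, 8.47% were lower and 9.74% higher at an unadjusted p below 0.05. The sum of the 36 genes was 5268 ± 903 CPM in the high and 6867 ± 851 CPM in the low responders (SD, n = 3). IFITM2 had a log2 fold change of -2.63 (SE 0.43) in exposed wells, STAT2 -0.54 (SE 0.11), WARS -0.28 (SE 0.26), HSH2D -1.69 (SE 0.38) and TRIM38 0.31 (SE 0.14).

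The difference in exposed wells minus the difference in control wells was tested with a term for each cow, and it uses the control libraries a second time. The study compared the phenotypes with controls accounted for in these same libraries, so the genes of its theme are no independent choice here. edgeR called 190 of 11759 genes (1.62%). All 36 interferon-stimulated genes had a positive change at an unadjusted p below 0.05 (edgeR), with a median of 0.74, and 12 were called. Of all 11759 genes, 1116 were positive at this p. Nearly all symbols of this list came through the study's own test of this response, so its count is no independent evidence. Among the genes called in control wells, TRIM38 changed by 1.00 (SE 0.14, adjusted p = 0.0122), HSH2D by 2.04 (SE 0.38, adjusted p = 0.0335) and UCHL1 by 0.67 (SE 0.13, adjusted p = 0.0402). These changes were positive where the control differences were negative. Of the 17 genes called in control wells, 0 had a change of the same sign as the control difference. They were chosen by their control difference, which this change subtracts, so the choice itself favours the opposite sign. WARS had 0.93 (SE 0.23) and SYNGR1 -1.05 (SE 0.31), which did not pass (adjusted p = 0.0767 and 0.121). ENSBTAG00000037605 had -0.15 (SE 0.78), a value well within its error. NOS2, with 0.13 (SE 0.30) in control wells, had 1.28 (SE 0.28) in exposed wells, and the change of 1.17 (SE 0.26) did not pass (adjusted p = 0.0592). S100A8, S100A9 and C1R had negative values in control wells and 1.19 (SE 0.61), 1.62 (SE 0.56) and 0.45 (SE 0.25) in exposed wells, with changes of 3.13 (SE 0.34), 3.15 (SE 0.21) and 2.20 (SE 0.33) that passed (adjusted p = 0.00602, 0.000293 and 0.0138). Without the low responder cow 92 the count of 190 was 30, without the low responder cow 94 it was 76, and without a term for each cow it was 0 (1150 at an unadjusted p below 0.05).

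**Figure D5:**
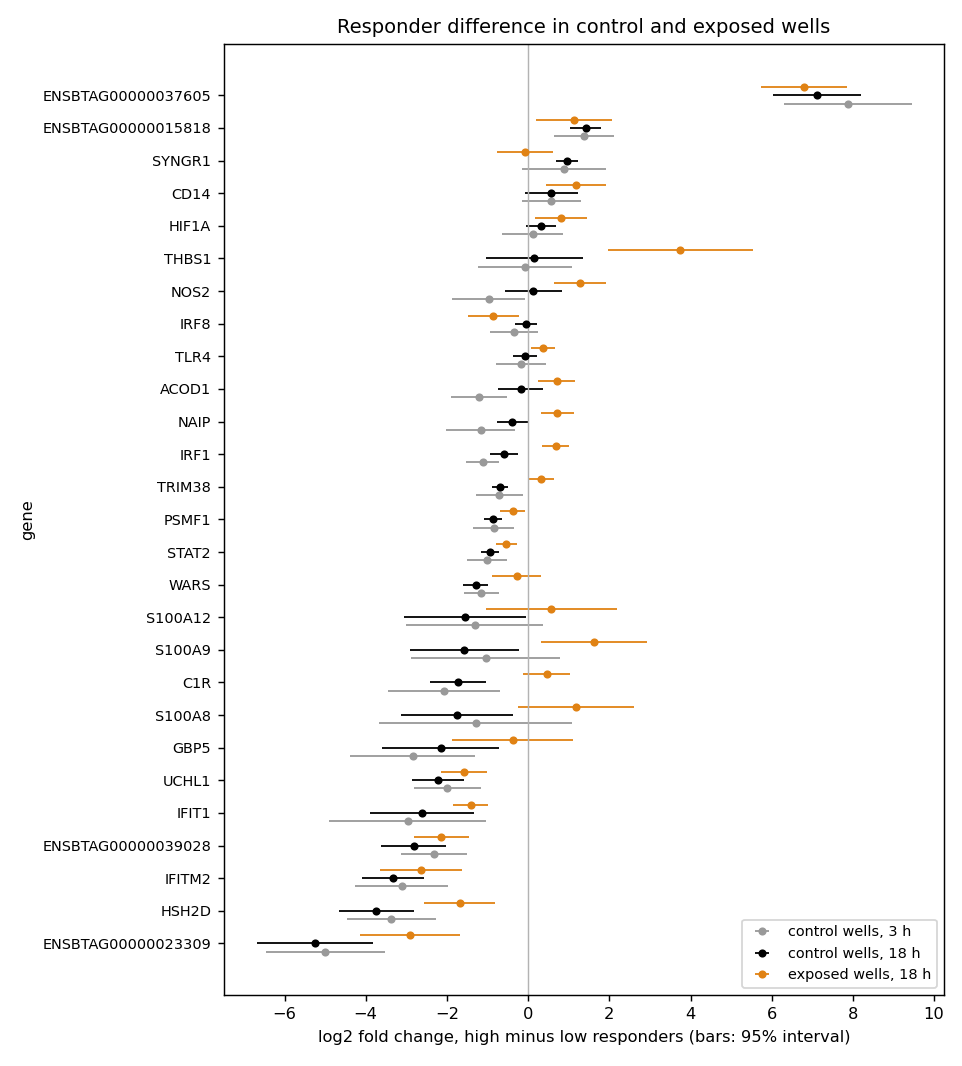
Log2 fold change (high minus low responders) with 95% intervals in control wells of 3 h (grey), control wells of 18 h (black) and exposed wells of 18 h (orange), for called genes and for genes of the study's theme (nitric oxide, lipopolysaccharide sensing, interferon, calgranulins). ENSBTAG00000037605 lies at 6.80 to 7.87 in all 3, IFITM2 at -3.33 to -2.63, and NOS2 at -0.97, 0.13 and 1.28.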

How the data were processed

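The authors trimmed read pairs with Trimmomatic, checked them with FastQC 0.11.5, aligned them to the UMD3.1 assembly with STAR and quantified 24616 Ensembl genes with RSEM; their own tests used DESeq2 1.22.2. The deposited files hold RSEM's expected counts, which are not normalized, with effective lengths. The deposited TPM values, which are scaled per length and to a fixed total, were not printed. Reads shared between genes are split by RSEM into fractions, so near-identical genes are uncertain.

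Here the expected counts were rounded and fitted by edgeR 4.0.16 under R 4.3.3 (normalization by TMM, the filter for low counts by group, quasi-likelihood test) in the 6 control libraries of 18 h; intervals are 95% intervals. Printed CPM are scaled over all 24 libraries. The other comparisons used the same test, with 4 group means for the change with time and a term for each cow for the change with exposure. With 3 cows per group an exact permutation test of a single value cannot fall below 0.1. Wells of 18 h that share a phenotype and a library number were treated as coming from 1 cow. Their deviations from the group means correlated at 0.385 to 0.544 in the 6 same-numbered pairs and at -0.405 to -0.0771 in the 12 others. Deviations cancel within a group, so the negative values follow in part from the positive ones and are no separate evidence. DESeq2 1.42.0 and limma 3.58.1 served as alternatives. No 2 libraries were identical.

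Symbols came from copies of supplementary tables that hold 1997 rows each, which gave 2799 usable symbols. No sequence or genome was used. The comparison, the gene lists and the genes to name were chosen with earlier results of these data known. The genes to name were, per direction, up to 12 called genes with a symbol, no overlap between groups and the largest change. Up to 4 called genes per list and 16 genes of the study's theme were added. In a direction with under 5 calls, the 5 smallest p among genes with a symbol and no overlap were added. The 5 smallest p among genes with a symbol were taken for the change with time. Another 5 were taken for the change with exposure, among the genes called in control wells. Other list members were chosen after their values were seen. Some genes that the rule names are not reported here. Each fit was run on simulated counts in which 100 genes were changed 2-fold and 100 were changed 4-fold. All genes of a comparison were drawn with 1 common spread and without effects of the cow. The recovered numbers therefore do not hold for genes that vary more. In the data, IFIT1 was not called in control wells of 18 h at a log2 fold change of -2.61 (SE 0.55). For control wells of 18 h (11423 genes) 79 and 100 were recovered with 10 false calls, for control wells of 3 h (11067 genes) 12 and 85 with 3, and for the change with time (11550 genes) 4 and 63 with 4. For exposed wells (11232 genes) 54 and 96 were recovered with 5 false calls, and for the change with exposure (11622 genes) 80 and 99 with 8.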

Additional observations from a re-analysis of the deposited data

Results flagged for a closer look

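Among the genes named by rule, 13 had a responder difference that differed between control and exposed wells of 18 h. The test was that of the difference itself (edgeR, term for each cow, adjusted p below 0.05 and fold change above 1.5). Of all genes tested, 190 of 11759 (1.62%) were called in this comparison. In the genes called lower in control wells the change was 2.04 for HSH2D, 1.00 for TRIM38 and 0.67 for UCHL1 on the log2 scale. It was 1.27 for IRF1, 1.95 for GBP5, 2.20 for C1R, 1.11 for NAIP and 3.81 for THBS1. The calgranulins S100A8, S100A9 and S100A12 had changes of 3.13, 3.15 and 2.23. The calgranulins, IRF1, GBP5, C1R, NAIP and THBS1 were named as genes of the study's theme. The study compared the phenotypes with controls accounted for in these same libraries, so these changes are no independent evidence. In the opposite direction, TRIM37 had -0.95 and POLE -1.26. TRIM37 and POLE, like HSH2D, TRIM38 and UCHL1, were chosen by their control difference, which the change subtracts. That choice favours a change of the opposite sign, so the signs of these genes are no further result. Without a term for each cow, 0 genes were called in this comparison (1150 at an unadjusted p below 0.05). The change of the difference from 3 h to 18 h passed in none of the named genes.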

How the results depend on the processing

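The count of calls in control wells of 18 h, with 3 cows per group, depended on the fit. It was 17, against 219 without a filter on low counts, 692 with DESeq2, 507 at an adjusted p below 0.1, 48 with all 24 libraries in 1 fit, 3 with a term for the library code (91 and 92 against 93 and 94) and 1 with limma-voom; without 1 library it ranged from 0 to 129. It stayed within 1.5 times under other scalings, effective lengths, robust shrinkage, a mean of 50 counts, no minimum fold change and 12 control libraries in 1 fit. Interferon-stimulated genes called lower numbered 2, against 19, 28, 24, 1, 0 and 1 under the first 6 of these settings in that order, 1 with 12 control libraries and 0 to 18 without 1 library.

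With the code number as a replicate block across phenotypes, 12 genes were called in control wells, of which 1 was among the 17, and 4 interferon-stimulated genes; the labels give no reason to pair cows across phenotypes, and the 2 pairs with the same number correlated at -0.103 and -0.0894. In control wells of 3 h the count was 1, against 8 without a filter and 240 with DESeq2 (0 to 28 without 1 library). In exposed wells of 18 h it was 5, against 41 and 641 (0 to 52). For the change with exposure it was 190, against 435, 395 and, with no replicate block, 0 (30 to 178 without 1 cow). For the change with time it was 0 in all alternatives run, with a term for each cow by library letter included.

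Signs turned in some values, none of which was called in its own comparison. THBS1 was -0.023 with limma-voom, -0.078 with the code term and -0.84 with the code number as a block. NOS2 and TLR4 were -0.12 and 0.0021 with that block. Without 1 library, NOS2 ranged from -0.14 to 0.40, THBS1 from -0.62 to 0.50, TLR4 from -0.21 to 0.029, IRF8 from -0.13 to 0.038, ACOD1 from -0.36 to 0.089, and SYNGR1 in exposed wells from -0.41 to 0.12. The cause of these moves was not tested. Depth limits HSH2D, ENSBTAG00000023309 and ENSBTAG00000039028, which held few counts in high responders.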

Other observations

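Genes outside the groups described above also lay apart in control wells of 18 h, and they were chosen after their values were seen. TIMP3, an inhibitor of matrix proteases, held 3.22, 2.02 and 3.26 CPM in high and 5.99, 8.61 and 9.99 CPM in low responders (log2 fold change -1.55, SE 0.28, adjusted p = 0.066, edgeR). COL6A3, a collagen chain, held 4.73, 8.52 and 1.37 CPM in high and 11.03, 11.7 and 29.5 CPM in low responders (log2 fold change -1.85, SE 0.63, adjusted p = 0.154, edgeR). The complement regulator CD59 held 1.51, 1.19 and 3.72 CPM in high and 0.476, 0.494 and 0.797 CPM in low responders (log2 fold change 1.84, SE 0.54, adjusted p = 0.117, edgeR). The toll-like receptor homologue CD180 held 18.4, 16.9 and 10.4 CPM in high and 34.3, 19.3 and 59.8 CPM in low responders (log2 fold change -1.32, SE 0.41, adjusted p = 0.131, edgeR), and TLR2 held 303, 270.0 and 272 CPM in high and 204, 169.8 and 254 CPM in low responders (log2 fold change 0.42, SE 0.15, adjusted p = 0.168, edgeR). The groups did not overlap in any of these 5 genes, and none was called. Of all genes tested, 15.2% did not overlap with the high responders higher and 13.3% with the high responders lower.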
